A study of Mus musculus with 16 samples.

Results

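The collagen chain genes of the mouse were examined as 1 group of genes in RNA of the distal femur. A probe set belonged to it when the platform annotation gave it a single gene symbol made of Col, a number, the letter a and a number. The rule found 82 probe sets of 42 genes, among 45037 probe sets that were not controls and 18193 genes with 1 symbol. By the assembly that their chains form, with the chains of cartilage as a class of their own, the genes were 8 fibrillar (17 probe sets), 7 cartilage (11), 9 basement membrane (16) and 18 other genes (38). The fibril-forming chains of cartilage, Col2a1, Col11a1 and Col11a2, are in the cartilage class and not in the fibrillar class. Each gene is described by the probe set with its highest mean over all arrays. Of the 42 genes, 27 had several probe sets and 15 had 1. The representative probe set lay above a low level of 77.0 signal units, the 30th percentile of all probe set means, in 36 genes. The other 6 genes were Col4a4, Col6a5, Col17a1, Col19a1, Col23a1 and Col26a1.

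The femurs came from 16 ovariectomized female C57BL/6 mice, and each array held the RNA of 1 mouse from the last 5 mm of the left femur. WT-OVX mice were wild type and received vehicle. WT-E2-4hr mice were wild type and received estrogen, with the bone taken 4 h later. ERaKO-OVX and ERaKO-E2-4hr mice lacked estrogen receptor alpha in osteoclasts and received vehicle or estrogen for the same time. Each group had 4 mice, and ovariectomy was common to all 4 groups. The vehicle of ERaKO-OVX was taken from the study's design, since the sample labels name none for that group. Not given in the sources used here are the estrogen compound, its dose, the driver of the deletion and the animals' age. The knockout is labelled osteoclast-specific. Whether the receptor gene was intact in the other cells of the bone, as that label implies, was not checked. The receptor gene Esr1 had signals of 945 ± 138, 507 ± 106, 637 ± 60.9 and 540 ± 149 (SD, n = 4 each) in WT-OVX, WT-E2-4hr, ERaKO-OVX and ERaKO-E2-4hr, which in whole bone does not check the labels. The sample was whole bone with marrow, in which fewer cells of a type and less RNA per cell cannot be told apart. All 10 osteoclast markers and all 8 measured osteoblast and osteocyte markers lay above the low level.

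Before any comparison, 2 technical facts bear on the arrays. First, 3 arrays stood apart: WT-OVX replicate 2, WT-E2-4hr replicate 2 and ERaKO-E2-4hr replicate 1 had bacterial spike-in (bioD) signals of 57490 to 102900, against 16980 to 30210 on the other 13. Their ratio of 3′ to 5′ signal for Actb, a sign of RNA quality, was 2.07 to 3.53 against 1.17 to 1.50. Second, replicates 1 and 2 of every group differed from replicates 3 and 4 across the whole array, with 11.2% of probe sets called. The signal for 18S ribosomal RNA also separated these sets. It was 7798 to 30653 on arrays numbered 1 and 2 and 215 to 6608 on those numbered 3 and 4, and its part was not tested. The labels do not say what the replicate numbers stand for, and all 3 arrays that stood apart carry numbers 1 or 2.

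Collagens are built from 3 alpha chains wound into a triple helix, and each chain has its own gene. Fibrillar chains assemble outside the cell into banded fibrils, with type I forming most of the bone matrix and types III and V modifying fibril assembly and diameter. In growth plate and joint cartilage, fibrils are made of types II and XI with type IX on their surface, and hypertrophic chondrocytes at the mineralizing front make type X. Type IV chains form the sheet-like network of basement membranes, and the remaining collagens decorate fibrils, form beaded microfilaments (type VI) or span the cell membrane.

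The first question was whether estrogen moved these genes in the femur within 4 h when the osteoclast receptor was present. No collagen gene passed the test in wild type: 0 of 42 genes had a limma p adjusted over all 45037 probe sets (Benjamini-Hochberg) under 0.05, and 0 did in the whole table (percent of all probe sets called 0.0). The values lay mostly on the lower side. After estrogen, 35 of 42 genes had the lower group mean, and the median difference was −0.46 on the log2(signal + 16) scale, against −0.02 over all probe sets. At an unadjusted limma p under 0.05 there were 13 lower genes and 0 higher ones, beside 3.57% and 2.58% of all probe sets. The class medians were −0.70 for fibrillar, −0.60 for cartilage, −0.12 for basement membrane and −0.58 for other genes. In 7 genes, Col3a1, Col5a1, Col6a1, Col6a2, Col6a3, Col12a1 and Col16a1, all 4 estrogen arrays lay below all 4 vehicle arrays, and 0 genes had the opposite separation. The same separation was present in 1.71% of all probe sets on the lower side and in 1.41% on the higher side.

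For the main chains of bone fibrils, the brightest probe sets gave differences near 0 and the dimmest ones gave lower values, none of which passed. Col1a1, the chain that makes up most of type I collagen, had signals of 29883, 33989, 26882 and 29320 in WT-OVX and 33150, 31602, 28495 and 29633 in WT-E2-4hr. The groups overlapped, and the difference was 0.04 ± 0.20 (SE; 95% interval −0.39 to 0.46). Col1a2, its partner chain, had 38750, 69534, 28734 and 29585 under vehicle and 39703, 48652, 33735 and 32477 after estrogen, a difference of −0.03 ± 0.29 (95% interval −0.63 to 0.57). The highest of these 8 values, 69534, belonged to WT-OVX replicate 2, which is among the 3 arrays that stood apart. The representative Col1a1 probe set moved within a narrow range, 26331 to 37644 over all 16 arrays, and its within-group SD was smaller than that of all but 3.44% of probe sets above the low level. A second Col1a1 probe set ranged from 6248 to 35338 and had an estrogen difference of −0.79 ± 0.39 (limma adjusted p = 0.825). The other Col1a2 probe sets differed by −0.11 ± 0.24 and, at a mean signal of 650, by −0.72 ± 0.47 (limma adjusted p of 0.980 and 0.885). The brightest probe sets lay near the top of the arrays: on WT-OVX replicate 3 Col1a1 read 26882 where the highest signal of any probe set that was not a control was 37364. Whether high signals were compressed was not tested, so their small differences do not show that the type I chains were stable.

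The minor fibrillar chains held the lower values. Col3a1, the chain of type III fibrils in vessel walls and soft connective tissue, had signals of 28437, 41939, 14357 and 17172 in WT-OVX and 13756, 10090, 5015 and 9415 in WT-E2-4hr. Each vehicle value was above each estrogen value, although the vehicle arrays themselves spread widely, with replicates 1 and 2 the highest. The difference was −1.37 ± 0.44 (limma adjusted p = 0.595). Col5a1, which nucleates type V and type I fibrils, had 4046, 4818, 4017 and 3707 under vehicle and 2604, 1990, 1893 and 876 after estrogen. The vehicle arrays were tightly grouped and the estrogen arrays were all lower, by −1.26 ± 0.26 (limma adjusted p = 0.341). Col5a1 had the smallest unadjusted p of the 42 genes, 0.000116. Its other probe sets also had negative differences, of −0.66 ± 0.25 and −0.45 ± 0.46, but on both of them the groups overlapped. On the first, WT-OVX replicate 1 read 2218 and WT-E2-4hr replicate 4 read 2244. On the second, WT-OVX replicate 2 read 381 and WT-E2-4hr replicate 4 read 982. Both had their highest estrogen value on WT-E2-4hr replicate 4, where the representative probe set had its lowest. Col24a1 (−1.01 ± 0.36), Col27a1 (−0.81 ± 0.31) and Col5a2 (−0.59 ± 0.24) lay on the same side without passing (limma adjusted p of 0.669, 0.715 and 0.750), and Col5a3 differed by −0.04 ± 0.21.

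Promoters of some of these fibrillar genes are shown, and those of Col1a2 and Col3a1 held different short motifs. The 130 bases before the start are given from the RefSeq promoter table (GRCm38.p6), with any TATAAA or CCAAT on either strand in capitals (CCAAT on the other strand reads ATTGG). Col1a2 is on chr6:4505488-4505617, Col3a1 on chr1:45311408-45311537 and Col5a1 on chr2:27886295-27886424, all on the plus strand.
Col1a2: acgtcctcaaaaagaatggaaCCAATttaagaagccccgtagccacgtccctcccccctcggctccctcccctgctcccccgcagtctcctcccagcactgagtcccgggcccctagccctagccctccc
Col3a1: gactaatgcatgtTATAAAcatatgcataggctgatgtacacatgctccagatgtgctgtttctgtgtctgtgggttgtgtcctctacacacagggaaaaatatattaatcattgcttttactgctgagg
Col5a1: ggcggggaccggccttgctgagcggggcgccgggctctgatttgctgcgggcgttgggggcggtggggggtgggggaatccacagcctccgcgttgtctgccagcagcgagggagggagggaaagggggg
Col1a2 had CCAAT at 109 bases before the start, Col3a1 had TATAAA at 117 and Col5a1 had neither. The Col3a1 match lay farther from the start than that of Col10a1, at 32 bases, so it is a match of letters only. Of the 42 genes, 33 were matched in the table, with 36 promoters. In the 250 bases before the start, TATAAA was found in 13.9% of these against 12.4% of all 32851 promoters, and CCAAT in 36.1% against 33.8%. The GC box GGGCGG was found on either strand in 21 of 36 (58.3%), against 32.7% of all promoters, and the difference was not tested. GGTCA, a single arm of the estrogen response element, was found on either strand in 14 of 36 (38.9%), against 35.2% of all promoters. The full palindrome GGTCANNNTGACC, which contains that arm on both strands, was in 0 of 36 and in 0.0639% of all promoters. These matches describe letters in a window of 250 bases and say nothing of receptor binding.

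Among the other collagens, the fibril-associated and beaded filament genes of connective tissue mostly had lower means after estrogen in wild type, without passing. Col12a1, which lies on type I fibrils in tendon and periosteum, had signals of 2212, 2188, 2779 and 2823 in WT-OVX and 1506, 728, 832 and 1109 in WT-E2-4hr. The groups did not overlap, and the difference was −1.29 ± 0.32 (limma adjusted p = 0.424). Col16a1, another fibril-associated chain, had 2060, 2971, 1755 and 1940 under vehicle and 1310, 1204, 699 and 1206 after estrogen (−0.98 ± 0.38, limma adjusted p = 0.715). Both genes had each estrogen array below each vehicle array.

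The 3 main type VI chains, which assemble together into microfilaments around cells, gave like differences. Col6a1 had 5104, 6950, 4893 and 4707 in WT-OVX and 4278, 2982, 2980 and 2902 in WT-E2-4hr (−0.72 ± 0.22, limma adjusted p = 0.572). Col6a2 had 4591, 9014, 4561 and 4315 against 4203, 2812, 2183 and 2790 (−0.87 ± 0.30, limma adjusted p = 0.638). Col6a3 had 4266, 4598, 5087 and 5143 against 2921, 2119, 3020 and 3250 (−0.77 ± 0.24, limma adjusted p = 0.571). All 3 chains were separated by group, with WT-E2-4hr replicate 1 the highest estrogen array for Col6a1 and Col6a2. Col6a4 and Col6a5, the chains of low signal, differed by −0.18 ± 0.62 and 0.40 ± 0.40. Further lower values were those of Col13a1, a membrane-spanning collagen (−0.95 ± 0.44), and of Col8a2, a short-chain network collagen (−1.04 ± 0.54), and the latter had an interval that included 0 (−2.19 to 0.10).

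**Figure D1:**
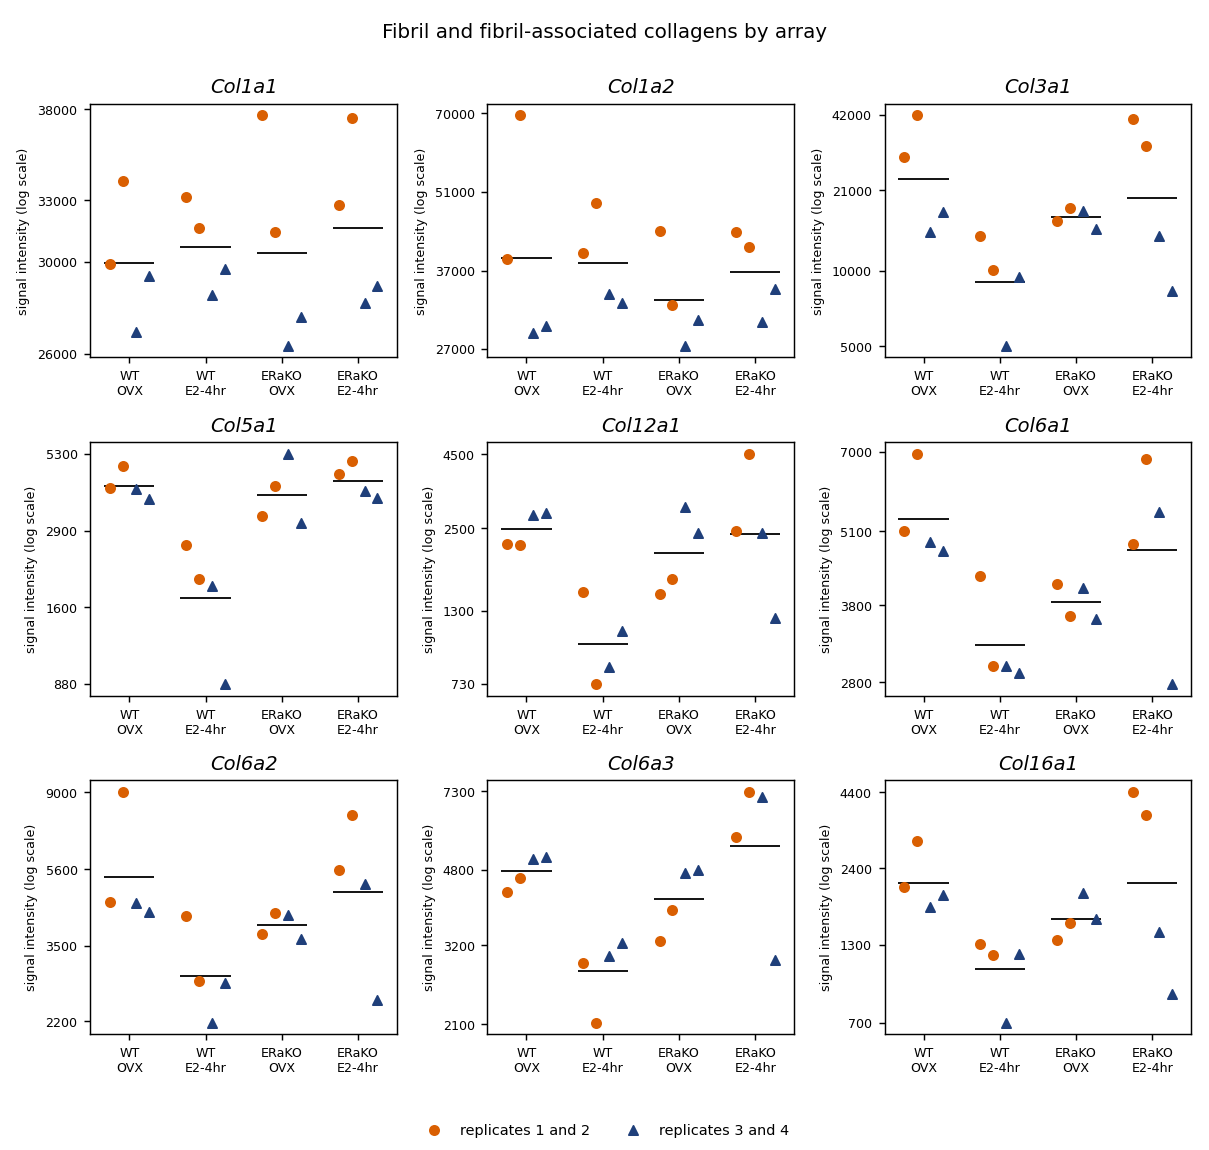
Deposited signal intensity (log scale) of 9 fibrillar, fibril-associated and type VI collagen genes on each of 16 arrays in 4 groups of 4. Circles are replicates 1 and 2, triangles replicates 3 and 4, and bars the geometric mean of a group. Col3a1, Col5a1, Col12a1, Col6a1, Col6a2, Col6a3 and Col16a1 have all WT-E2-4hr points below all WT-OVX points, and Col1a1 stays between 26331 and 37644.

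The basement membrane class had a median nearer 0 than the other classes (−0.12). Col4a1 and Col4a2, the chains of the common type IV network, differed by −0.02 ± 0.18 and −0.12 ± 0.23 after estrogen in wild type, with 95% intervals of −0.39 to 0.35 and −0.61 to 0.37. Col15a1, a basement membrane zone collagen of vessels and muscle, had the largest difference of the class, −1.06 ± 0.29 (limma adjusted p = 0.476). Its signals were 627, 551, 526 and 389 in WT-OVX and 457, 144, 166 and 293 in WT-E2-4hr, which overlapped through a single array on each side. Col18a1, whose end fragment is endostatin, differed by −0.33 ± 0.30. Of the 9 genes, 6 were lower and 3 higher.

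The annotated starts of Col4a1 and Col4a2 lie 21 bases apart on opposite strands, which is why both are shown. The printed stretches lie on either side of these starts and have no base in common. Col4a1 is on chr8:11312827-11312956 (minus strand) and Col4a2 on chr8:11312675-11312804 (plus strand) of GRCm38.p6, with capitals as above.
Col4a1: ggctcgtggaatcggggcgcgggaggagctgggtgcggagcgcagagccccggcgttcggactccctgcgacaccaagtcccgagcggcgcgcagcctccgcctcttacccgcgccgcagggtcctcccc
Col4a2: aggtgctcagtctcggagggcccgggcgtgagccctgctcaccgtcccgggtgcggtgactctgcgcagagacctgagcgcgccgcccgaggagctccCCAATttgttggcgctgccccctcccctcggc
Col4a2 had CCAAT at 32 bases before its start. Across the 16 arrays the deviations of the pair from their group means had a Pearson correlation of 0.12, and of 0.22 with the replicate set also removed. In comparison, the type VI pair Col6a1 and Col6a2 had 0.93 and 0.90. These correlations are descriptions over the same 16 arrays, which share tissue sample and array quality.

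Estrogen was then compared with vehicle in the knockout, to see the response without the osteoclast receptor. No collagen gene passed (0 of 42 in the limma test, percent of all probe sets called 0.0). In the knockout 24 of 42 genes had the higher mean after estrogen, and the median difference was 0.05 against 0.02 over all probe sets. At an unadjusted limma p under 0.05 there were 3 higher genes and 1 lower one, beside 1.60% and 2.13% of all probe sets. All 8 fibrillar genes had differences above 0, from 0.03 to 0.31, and none of them had an unadjusted p under 0.05. Col5a1 had 3269, 4108, 5308 and 3093 in ERaKO-OVX and 4516, 5001, 3955 and 3756 in ERaKO-E2-4hr, and Col12a1 had 1492, 1672, 2967 and 2406 and then 2444, 4521, 2411 and 1235. Both genes overlapped between the groups, with differences of 0.15 ± 0.26 and 0.22 ± 0.32.

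The knockout values of smallest p belonged to other genes. Col8a1, a short-chain collagen of vessel walls and endothelial cell layers, was the only gene whose groups did not overlap (higher after estrogen, beside 1.47% of all probe sets on that side and 2.03% on the lower side). Its signals were 738, 836, 1020 and 774 in ERaKO-OVX and 1156, 1273, 1233 and 1627 in ERaKO-E2-4hr, a difference of 0.64 ± 0.30 (limma adjusted p = 1.00). Col4a1 differed by 0.43 ± 0.18 and Col6a3 by 0.40 ± 0.24. Col20a1 (1.19 ± 0.45) and Col17a1 (−0.92 ± 0.41) had larger differences at low signal: on ERaKO-OVX replicate 3 Col20a1 read 7.93, and Col17a1 is 1 of the 6 genes at or below the low level. The second Col20a1 probe set above the low level differed by −0.09. The limma adjusted p was 1.00 for each of these genes.

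**Figure D2:**
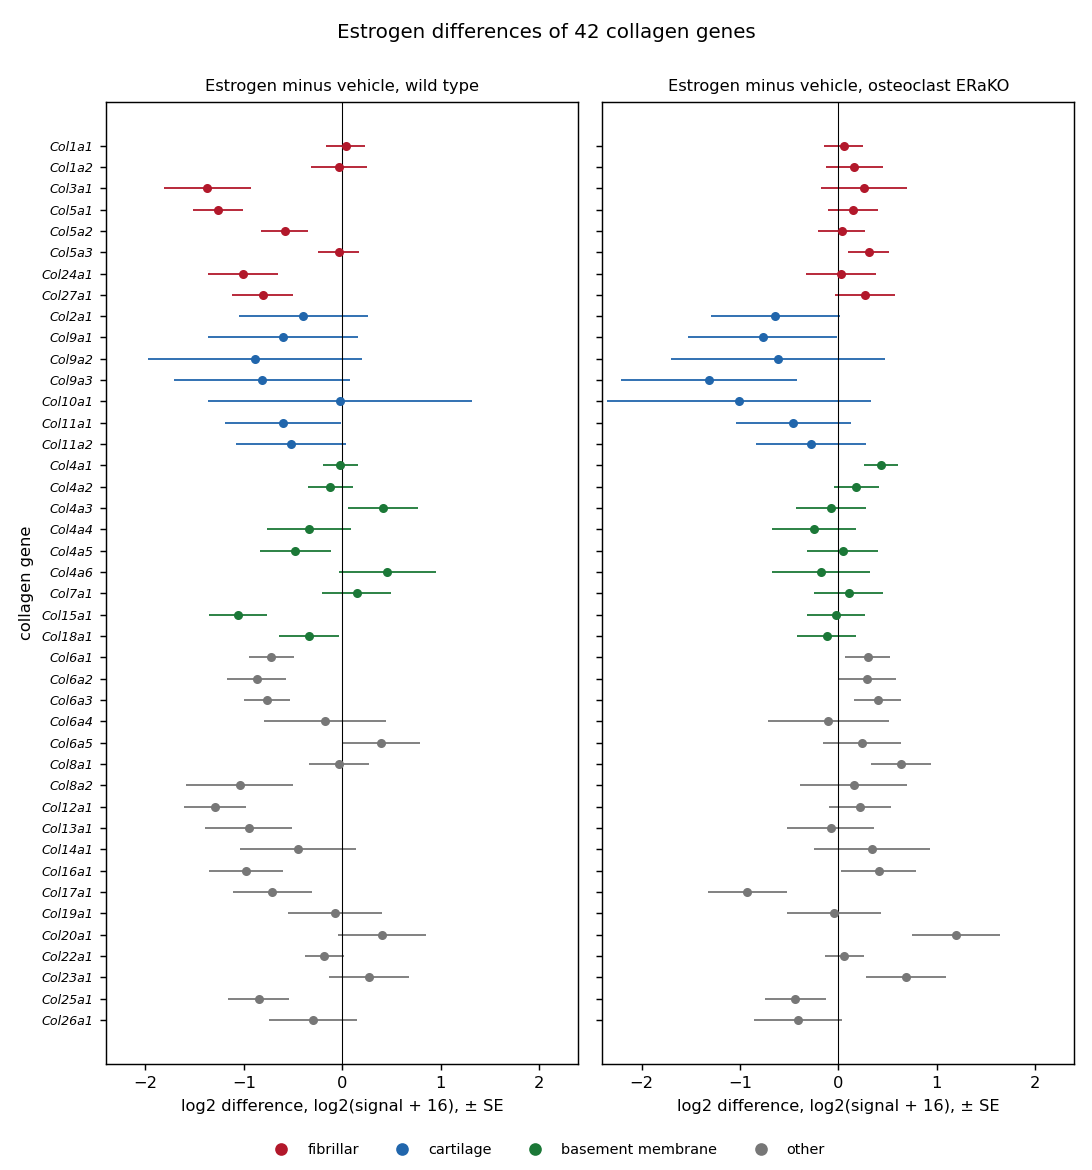
Difference between estrogen and vehicle on the log2(signal + 16) scale, with its standard error, for the 42 collagen genes in wild type (left) and in the osteoclast knockout (right), 4 arrays a group. Colours mark the 4 classes. In wild type 35 of 42 points lie below 0, and in the knockout 24 of 42 lie above 0. No point passed the limma test.

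The difference between both responses was tested directly as an interaction, and again no gene passed (0 of 42 in the limma test, percent of all probe sets called 0.0). The response was the higher in the knockout for 32 of 42 genes, and the median difference was 0.32 against 0.03 over all probe sets. All 8 fibrillar genes and 15 of 18 other genes lay on that side, with medians of 0.83 and 0.73. Cartilage genes were divided, 3 above and 4 below 0. At an unadjusted limma p under 0.05 there were 9 higher genes and 0 lower ones, beside 3.06% and 2.28% of all probe sets. The smallest p values belonged to Col5a1 (1.41 ± 0.36), Col6a3 (1.17 ± 0.34), Col12a1 (1.51 ± 0.45), Col6a1 (1.02 ± 0.32) and Col6a2 (1.16 ± 0.42), each with a limma adjusted p of 0.927. Col3a1 had the largest estimate, 1.63 ± 0.62, with a 95% interval of 0.33 to 2.93. Its estimates were 2.64 within replicates 1 and 2 and 0.62 within replicates 3 and 4. In the same order, Col5a1 had 1.32 and 1.50, Col6a3 1.68 and 0.65, and Col12a1 2.12 and 0.90. Col6a1 had 1.30 and 0.73, and Col6a2 had 1.62 and 0.71. Over the 3 probe sets of Col5a1 the interaction estimate ran from 0.39 to 1.41. Its other probe sets had 0.67 and −0.02 within replicates 1 and 2, and 0.66 and 0.80 within replicates 3 and 4. Within replicates 1 and 2 the fibrillar median of the difference between responses was 0.55, and the cartilage median was −1.77. Within replicates 3 and 4 the cartilage median was 1.39.

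The genotypes were also compared under each treatment. These comparisons use the same 4 groups as the estrogen comparisons and are not independent of them. Under vehicle 0 of 42 genes passed the limma test (percent of all probe sets called 0.0), and 1 gene, Col4a1, had an unadjusted p under 0.05 (−0.40 ± 0.18, limma adjusted p = 0.993). It was lower, beside 1.86% of all probe sets on the lower side and 1.72% on the higher side. Col6a1, Col6a2 and Col8a1 had all knockout arrays below all wild-type arrays, beside 1.65% of all probe sets, and 0 genes had the opposite separation, beside 1.55%. For Col8a1 the wild-type signals were 1255, 1228, 1371 and 1330 and the knockout signals those given above, a difference of −0.62 ± 0.30. Col6a1 had 4142, 3639, 4069 and 3593 in ERaKO-OVX (−0.47 ± 0.22). Col4a6, a chain of specialised basement membranes, and Col20a1 came next with 0.91 ± 0.50 and −0.79 ± 0.45. The second Col20a1 probe set above the low level went the other way (0.34). Of the 42 genes, 29 were lower in the knockout and 13 higher, with a median of −0.11 against −0.02 over all probe sets.

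After estrogen the knockout was higher for 31 of 42 genes, with a median of 0.23 against 0.01 over all probe sets, and 0 of 42 passed the limma test (percent of all probe sets called 0.0). At an unadjusted limma p under 0.05 there were 10 higher genes and 0 lower ones, beside 2.69% and 2.22% of all probe sets. Col5a1 differed by 1.31 ± 0.26 (limma adjusted p = 0.847) and was the only gene whose groups did not overlap, beside 1.13% of all probe sets on the higher side and 0.953% on the lower side. On its other probe sets the groups overlapped, and over its 3 probe sets the difference was 0.67 to 1.31. Col6a3 had 5711, 7262, 7087 and 2959 in ERaKO-E2-4hr, so 3 arrays lay above every WT-E2-4hr array and replicate 4 did not (0.96 ± 0.24, limma adjusted p = 1.00). Col12a1 (1.24 ± 0.32), Col15a1 (0.95 ± 0.29) and Col16a1 (0.98 ± 0.38) followed. Averaged over treatments or over genotypes, 0 of 42 genes passed in the limma test (0.0% of all probe sets called for genotype and 0.00222% for estrogen). The smallest unadjusted limma p was that of Col5a1 in both averages, with −0.55 ± 0.18 for estrogen and 0.61 ± 0.18 for genotype. At an unadjusted limma p under 0.05 the estrogen average had 1 higher gene and 5 lower ones, beside 2.04% and 2.61% of all probe sets. They included Col25a1 (−0.64 ± 0.22), Col17a1 (−0.82 ± 0.29), Col15a1 (−0.54 ± 0.21) and Col20a1 (0.80 ± 0.32). The second probe set above the low level went the other way for Col25a1 (0.28) and was near 0 for Col20a1 (0.09). The genotype average had 3 higher genes and 0 lower ones, beside 1.69% and 1.55%, with Col6a3 at 0.37 ± 0.17 and Col12a1 at 0.49 ± 0.22, and Col15a1 (0.43 ± 0.21) and Col4a6 (0.59 ± 0.35) came next.

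Markers of other tissues stood on the same side as these collagens in wild type after estrogen, and their part in the results was not tested. None of 10 tendon and fibroblast markers passed, 9 were lower, and the median was −0.85. Their summed signal was 18570 to 44330 in WT-OVX, 10780 to 24460 in WT-E2-4hr, 14020 to 21780 in ERaKO-OVX and 11810 to 63480 in ERaKO-E2-4hr. Skeletal muscle markers were lower in 12 of 13 with a median of −0.996 and 0 called, and their summed signal was 20400 to 587500 in WT-OVX and 9830 to 232400 in WT-E2-4hr. Adipocyte markers were lower in 6 of 6 measured (median −0.68, 0 called), with sums of 20440 to 71050 and 13440 to 35520. In ERaKO-OVX and ERaKO-E2-4hr the sums were 8479 to 174300 and 4140 to 771300 for muscle and 12220 to 26990 and 11440 to 85340 for adipocyte markers. No marker of these lists was at 0 on any array. The lowest single values were 7.50 for Kera, 19.0 for Myh2 and 5.83 for Lep. Medians of the other lists were −0.74 for cartilage markers that are not collagens, −0.54 for B lymphocyte, −0.05 for osteoblast and osteocyte, 0.03 for endothelium and 0.03 for osteoclast markers, with 0 called in each.

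The same lists were read in the other comparisons, with 0 members called by limma in each, and their part was again not tested. After estrogen in the knockout the higher means were 13 of 13 for muscle (median 1.11), 8 of 10 for tendon and fibroblast (0.35) and 5 of 6 for adipocyte markers (0.42). For the interaction they were 13 of 13 (2.15), 9 of 10 (1.14) and 6 of 6 (0.86). Under vehicle the knockout was lower in 12 of 13 muscle (−1.59), 10 of 10 tendon and fibroblast (−0.56) and 6 of 6 adipocyte markers (−1.02). After estrogen the knockout was higher in 12 of 13 (0.52), 8 of 10 (0.46) and 4 of 6 (0.16), and in 9 of 12 cartilage markers that are not collagens (0.22).

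The wild-type values were also taken within each replicate set. They are given for 5 of the genes whose groups did not overlap. That separation alone makes the sign negative in both sets, so the shared sign adds no support. With numbers 1 and 2 first and numbers 3 and 4 second, the differences were −0.95 and −1.57 for Col5a1, −1.06 and −1.53 for Col12a1, −1.55 and −1.19 for Col3a1, −0.74 and −0.70 for Col6a1 and −0.83 and −0.70 for Col6a3. Col14a1 differed in sign, at −0.96 and 0.07, and within numbers 3 and 4 the higher means included 2 of 6 fibril-associated and 2 of 5 beaded filament genes. In the knockout the same genes differed in sign between sets for Col5a1 (0.37 and −0.07), Col12a1 (1.07 and −0.63), Col3a1 (1.09 and −0.57) and Col6a3 (0.85 and −0.05). No collagen gene was called in any of these within-set comparisons, in which limma called 0.0% of all probe sets each, nor in the test of the difference between sets, in either genotype (0.0% of all probe sets). At an unadjusted limma p under 0.05, that test of the difference between sets gave 1 higher and 2 lower genes in wild type, beside 4.31% and 2.84% of all probe sets, and 0 higher and 6 lower genes in the knockout, beside 1.61% and 3.59%. The smallest p values belonged to Col24a1 in wild type (−1.50 ± 0.45, limma adjusted p = 0.669) and to Col16a1 in the knockout (−2.11 ± 0.39, limma adjusted p = 0.429). Col16a1 differed by 1.46 within numbers 1 and 2 and by −0.65 within numbers 3 and 4.

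The genes that make, fold, trim and bind collagen were taken from lists chosen with earlier results known. In wild type after estrogen none of their measured members passed the limma test. Of 15 genes of prolyl and lysyl modification, 12 were lower (median −0.29), with P4ha2, a subunit of prolyl 4-hydroxylase, at −0.99 ± 0.30 and P3h3, a prolyl 3-hydroxylase family member, at −0.76 ± 0.27. Of 9 folding and export genes, 6 were lower (median −0.28), with Fkbp14 at −0.81 ± 0.27 and Serpinh1, the collagen chaperone HSP47, at −0.69 ± 0.36. Of 6 propeptide processing genes, 5 were lower (median −0.44), with Pcolce, which enhances removal of the C-propeptide, at −1.01 ± 0.36. Tll1 (−0.59 ± 0.50, mean signal 22.9) and Tll2, of these 6 genes, lay below the low level. Of 8 collagen receptors, 7 were lower (median −0.16), with Antxr1 at −1.12 ± 0.20 and Ddr2, a receptor tyrosine kinase for fibrillar collagen, at −0.95 ± 0.24. All 6 transcription factors of collagen genes were lower (median −0.33), with Mef2c at −0.74 ± 0.31 and Sp7, the osteoblast factor osterix, at −0.70 ± 0.45.

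Cartilage collagens varied more than any other class. Their median within-group SD was 1.28 on the log2 scale, against 0.39 for fibrillar, 0.47 for basement membrane, 0.51 for other genes and 0.40 over all probe sets above the low level. Col10a1, the type X chain of hypertrophic chondrocytes, read 418, 101, 9151 and 8374 in WT-OVX and 1260, 396, 1870 and 3672 in WT-E2-4hr. In the knockout it read 2056, 1908, 6369 and 3765 under vehicle and 64.4, 2963, 8588 and 2822 after estrogen. Over the 16 arrays it spanned 142-fold, and in each group the lowest value belonged to a replicate numbered 1 or 2.

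Col2a1, the chain of the main cartilage fibril, had 4096, 5334, 17882 and 19303 in WT-OVX and 10176, 5232, 5355 and 8809 in WT-E2-4hr. In the knockout it had 16843, 20676, 11996 and 10591 under vehicle and 2168, 33584, 17728 and 5739 after estrogen. The groups overlapped in every comparison, and the ERaKO-E2-4hr arrays alone held both the lowest and the highest of the 16 values. The lowest, on replicate 1, came from an array that stood apart. All 7 cartilage genes had their lowest signal on that array, and for 4 genes (Col10a1, Col9a1, Col11a1 and Col11a2) the highest signal was on WT-OVX replicate 3, for the other 3 (Col2a1, Col9a2 and Col9a3) on ERaKO-E2-4hr replicate 2.

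The type IX chains, which coat the fibril, and the type XI chains, which lie in its core, followed the same arrays. Col9a1 had 2895, 1865, 14939 and 14260 in WT-OVX, and Col9a2 had 78.7, 26.3, 1123 and 862 there. Col9a3 ranged from 66.3 to 5771 over all arrays. Col11a1 had 5053, 4200, 17520 and 14238 in WT-OVX, and Col11a2 had 1513, 870, 5660 and 4999. In each of these genes both WT-OVX arrays numbered 3 and 4 lay above those numbered 1 and 2.

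**Figure D3:**
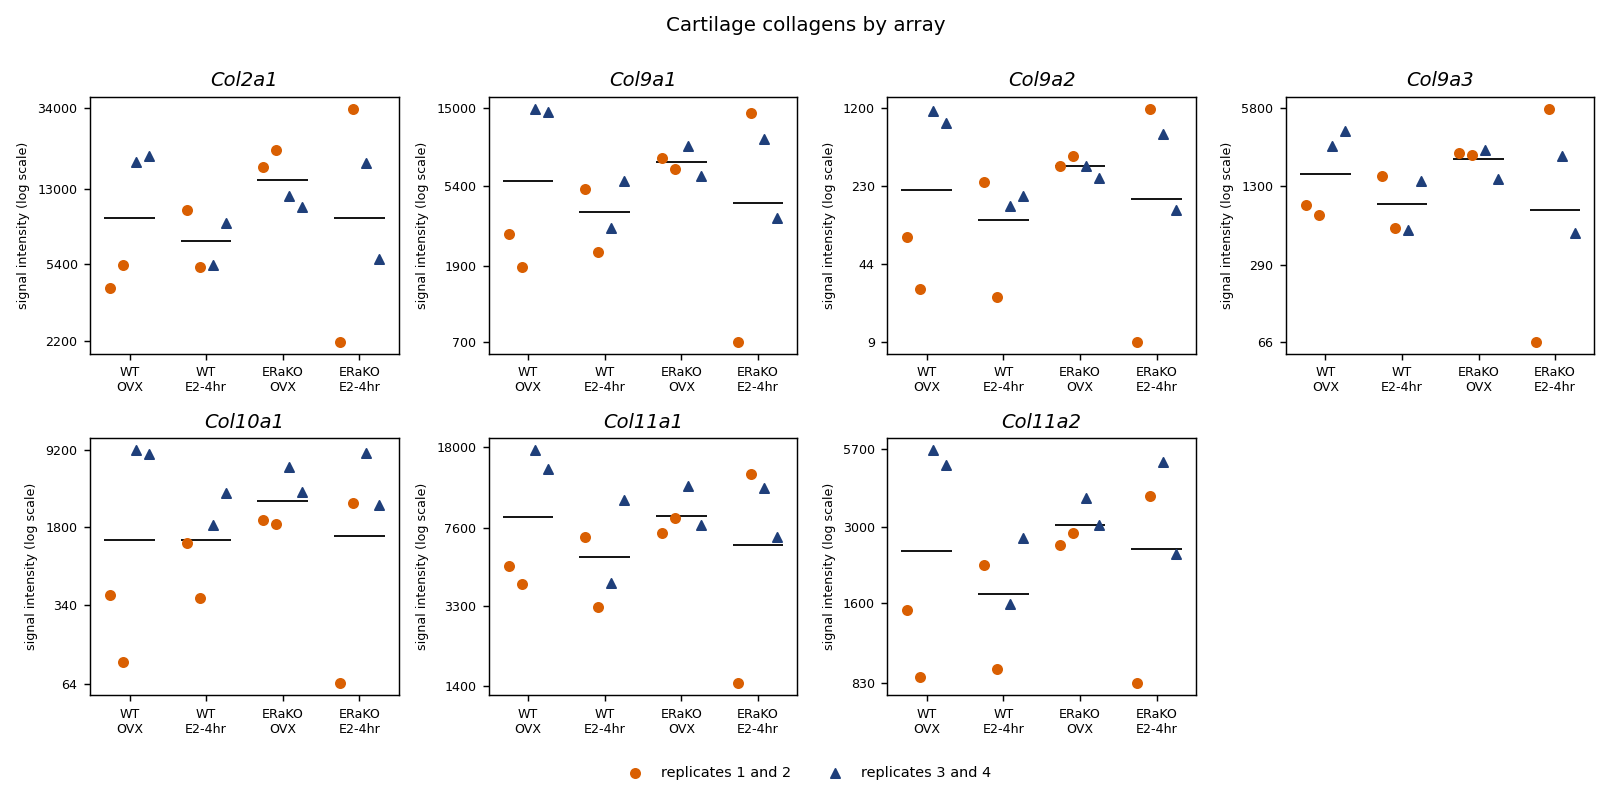
Deposited signal intensity (log scale) of the 7 cartilage collagen genes on each of 16 arrays in 4 groups of 4. Circles are replicates 1 and 2, triangles replicates 3 and 4, and bars the geometric mean of a group. All 7 genes have their lowest point on ERaKO-E2-4hr replicate 1, and Col10a1 reaches from 64.4 to 9151.

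The cartilage genes varied together from array to array. Over the 21 pairs of the class, the correlation of deviations from group means had a median of 0.92 (0.75 to 0.97), and of 0.96 with the replicate set also removed. The 28 fibrillar pairs had a median of 0.23 (−0.74 to 0.84), the 28 basement membrane pairs 0.13 and the 78 pairs of other genes 0.24. Among the closest pairs were Col9a1 with Col9a2 (0.97) and Col10a1 with Col11a2 (0.97). Col5a2, a fibrillar chain, correlated with Col11a2 at 0.91 and with Col10a1 at 0.87, whereas its partner chain Col5a1 correlated with it at −0.06. Col1a2 correlated with Col10a1 at −0.82 (−0.47 with set removed). Outside cartilage, Col3a1 and Col16a1 had 0.93 (0.97 with set removed), and Col3a1 and Col8a2 had 0.91. All points share the same 16 arrays, and every value is a description.

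**Figure D4:**
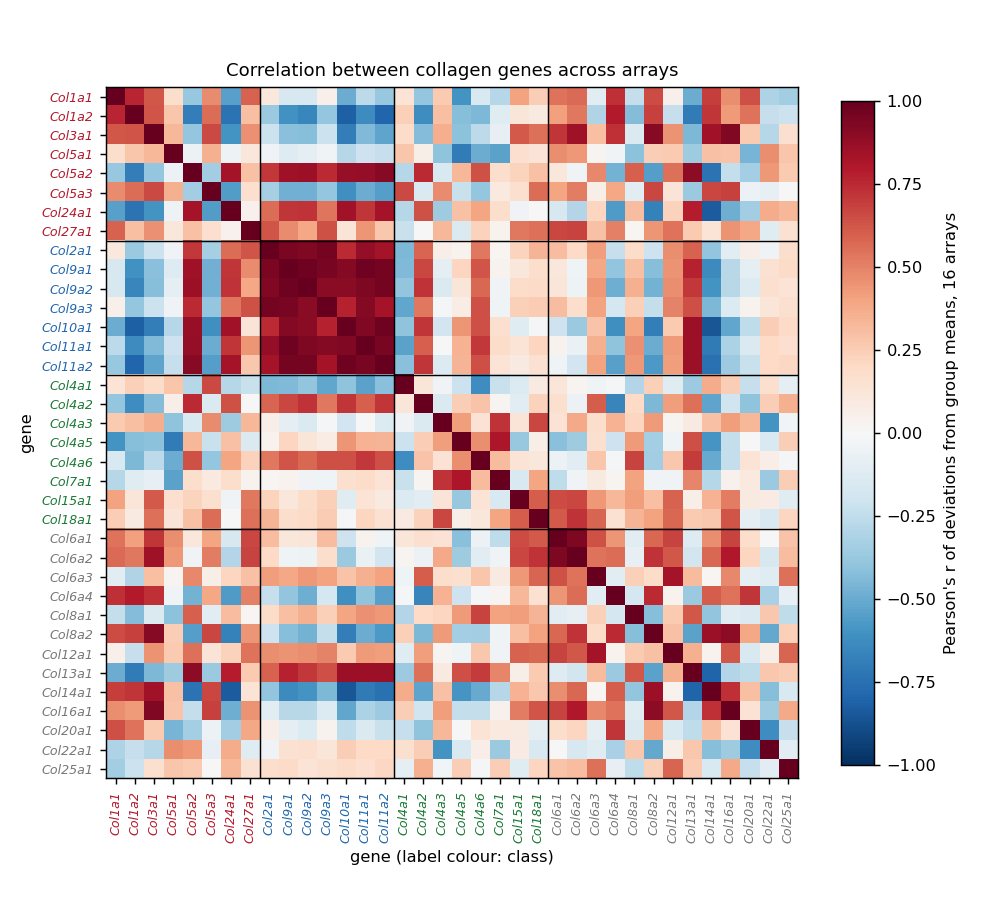
Pearson correlation between 36 collagen genes above the low level, over 16 arrays, after subtraction of group means; red is positive and blue negative, lines separate the 4 classes. The cartilage block is uniformly positive (0.75 to 0.97), and Col5a2 and Col13a1 share its pattern.

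In no estrogen or genotype comparison did a cartilage collagen pass the limma test, and the standard errors were large. In wild type all 7 were lower after estrogen, from −0.89 for Col9a2 (± 1.09) to −0.02 for Col10a1 (± 1.34), with Col2a1 at −0.40 ± 0.66, Col9a1 at −0.60 ± 0.76, Col9a3 at −0.82 ± 0.90, Col11a1 at −0.60 ± 0.59 and Col11a2 at −0.52 ± 0.56. In the knockout all 7 were also lower, with a median of −0.64 and Col9a3 at −1.32 ± 0.90. Without ERaKO-E2-4hr replicate 1, the array of lowest cartilage signal, the knockout median turned to 0.25. Split by replicate set, numbers 1 and 2 gave a wild-type median of 0.57 and numbers 3 and 4 one of −1.73. The knockout medians of both sets were −1.205 and −0.10. The set dependence of the wild-type response was negative for all 7 genes (median −2.07, against 0.11 over all probe sets), with Col10a1 at −3.42 ± 1.60, and 0 passed. In the knockout it was positive for all 7 (median 0.96, against −0.11), and 0 passed. That median was −1.01 without ERaKO-E2-4hr replicate 1 and 3.01 without replicate 2 of the same group.

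Replicates 3 and 4 were then compared with replicates 1 and 2 over all groups, with the group as a term. These sets had been seen to differ in an earlier analysis of the same data. The p values of this comparison are therefore descriptions and not those of a split planned beforehand. Here 10 of 42 collagen genes passed the limma test, 5 higher and 5 lower, beside 11.2% of all probe sets (6.41% higher and 4.76% lower). The cartilage chains Col10a1 (type X) and Col11a2 (type XI), with Col13a1, Col24a1 and Col4a5, were higher in replicates 3 and 4. Col14a1, Col3a1, Col8a2, Col6a4 and Col1a2 were lower. Col12a1 (0.01 ± 0.22) and Col6a1, Col6a2 and Col6a3 did not pass. The 42 genes were evenly divided, 21 higher and 21 lower. Leaving out a single array gave 5 to 12 called genes, with 5 or 6 when it was WT-OVX replicate 2, 3 or 4, WT-E2-4hr replicate 2, ERaKO-OVX replicate 1 or 3, or ERaKO-E2-4hr replicate 1 or 3. In the same fits 7.01% to 11.9% of all probe sets were called.

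Col14a1, a fibril-associated chain of tendon, skin and muscle connective tissue, had the smallest adjusted p. In replicates 1 and 2 it read 1172 and 1286 in WT-OVX, 509 and 762 in WT-E2-4hr, 718 and 965 in ERaKO-OVX and 2370 and 1077 in ERaKO-E2-4hr. In replicates 3 and 4 it read 312 and 420, 400 and 361, 340 and 356, and 340 and 251 in the same order. Every value of the first set lay above every value of the second, and the fall was by 1.50 ± 0.21 (limma adjusted p = 0.000215). Col14a1 and Col1a1 were the genes with no overlap between the sets, beside 1.07% of all probe sets on the lower side and 1.14% on the higher side. Col1a1 itself differed by −0.25 ± 0.12 and did not pass (limma adjusted p = 0.198).

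Col10a1 rose most, by 2.94 ± 0.63 (limma adjusted p = 0.00621), and within groups the differences were 5.28 in WT-OVX, 1.86 in WT-E2-4hr, 1.30 in ERaKO-OVX and 3.34 in ERaKO-E2-4hr. Without the 3 arrays that stood apart it still passed. Col11a2 rose by 1.00 ± 0.31 (limma adjusted p = 0.0442) and lost the call without those arrays (0.46, limma adjusted p = 0.332). The other 5 cartilage genes were on the same side without passing, from 0.35 ± 0.45 for Col2a1 to 1.37 ± 0.69 for Col9a2. The class median was 0.98 against 0.04 over all probe sets, and within groups it was 2.20 in WT-OVX, 0.47 in WT-E2-4hr, 0.05 in ERaKO-OVX and 0.95 in ERaKO-E2-4hr.

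The promoters of the type X and type XI chains are given because Col10a1 carries a TATA box at the usual distance and the type XI genes do not. Col10a1 is on chr10:34389851-34389980, Col11a1 on chr3:114030410-114030539 and Col11a2 on chr17:34039008-34039137 of GRCm38.p6, all on the plus strand (RefSeq, 130 bases before the start).
Col10a1: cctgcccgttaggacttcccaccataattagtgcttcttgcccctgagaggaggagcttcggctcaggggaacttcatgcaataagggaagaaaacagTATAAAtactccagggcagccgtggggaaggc
Col11a1: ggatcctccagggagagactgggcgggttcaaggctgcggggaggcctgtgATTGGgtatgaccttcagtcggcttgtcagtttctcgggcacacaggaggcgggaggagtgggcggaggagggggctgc
Col11a2: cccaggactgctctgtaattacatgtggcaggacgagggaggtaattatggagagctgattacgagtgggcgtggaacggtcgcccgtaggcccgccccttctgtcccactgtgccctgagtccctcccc
TATAAA lay 32 bases before the start in Col10a1 and 143 bases before it, outside the printed stretch, in Col11a2, and Col11a1 had a reverse CCAAT at 79 bases. The SOX core AACAAT, searched because SOX factors act on cartilage genes, was in 0 of 6 cartilage promoters in the 250 bases before the start and in 9.42% of all promoters. With 6 promoters, 0 matches cannot be told from that share. Col2a1 and Col9a3 had no entry in the promoter table and were not searched.

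Of the remaining called genes, Col3a1 fell by 0.93 ± 0.21 (limma adjusted p = 0.00855), and within groups its difference was −1.14 in WT-OVX, −0.78 in WT-E2-4hr and −0.07 in ERaKO-OVX, with the largest in ERaKO-E2-4hr (−1.74). Col8a2 fell by 1.16 ± 0.27 and Col6a4 by 1.13 ± 0.34, and Col13a1 rose by 0.91 ± 0.22. Col24a1 rose by 0.65 ± 0.20 and Col4a5, a type IV chain of the X chromosome, by 0.66 ± 0.21. The mean signals of its probe sets were 136 and 109, the second differed by −0.20 ± 0.20, and Col4a5 was called in 10 of 24 alternatives. The other Col6a4 probe set differed by −0.31 ± 0.28 (limma adjusted p = 0.526). Without the 3 arrays that stood apart, Col6a4, Col8a2, Col13a1, Col24a1, Col11a2 and Col1a2 no longer passed, and 4 collagen genes were called in all, beside 5.52% of all probe sets in the same fit. Within single groups limma called 3 of 42 genes in WT-OVX, 0 in WT-E2-4hr, 0 in ERaKO-OVX and 4 in ERaKO-E2-4hr, beside 1.73%, 0.18%, 0.00222% and 1.76% of all probe sets.

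Probe sets of a gene did not always move alike between the sets. Col1a2 fell by 0.50 ± 0.15 (limma adjusted p = 0.0419), but its difference was 0.16 after quantile normalization, and its probe set of mean signal 650 rose by 1.13 ± 0.19. The second Col1a1 probe set fell by 0.90 ± 0.17 (limma adjusted p = 0.00315), more than the first. For Col5a1 the 3 probe sets gave −0.29, 0.34 and 0.87, of which the last passed (limma adjusted p = 0.0264). Of 20 genes with several probe sets above the low level, 14 had the same sign in all of them here and 16 in the wild-type estrogen comparison.

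**Figure D5:**
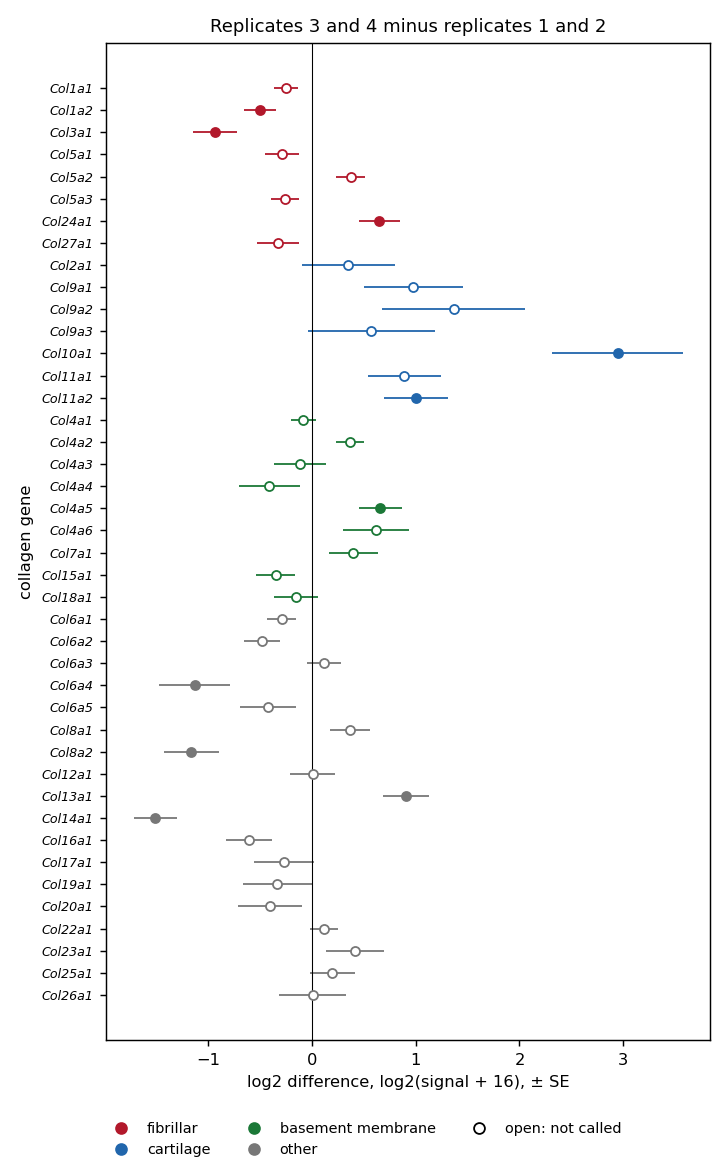
Difference between replicates 3 and 4 and replicates 1 and 2 on the log2(signal + 16) scale, with its standard error, for 42 collagen genes over 16 arrays with the group as a term. Filled points passed the limma test and open points did not; colours mark the classes. Col10a1 (2.94) lies farthest to the right and Col14a1 (−1.50) farthest to the left, and all 7 cartilage genes lie above 0.

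Markers of other tissues moved with these differences, and their part in them was not tested. All 13 skeletal muscle markers were called lower in replicates 3 and 4 (median −4.19), and their summed signal went from 96900 to 771300 in the first set and from 4140 to 41650 in the second. Tendon and fibroblast markers were called lower in 6 of 10 (median −1.40; sums 19930 to 63480 and 10780 to 20740), and adipocyte markers in 4 of 6 (median −1.42; sums 21950 to 85340 and 11440 to 21540). Osteoclast markers were called higher in 7 of 10 (sums 23760 to 44160 and 45930 to 69570) and osteoblast and osteocyte markers in 5 of 8 (sums 28370 to 49850 and 33450 to 54920). Endothelial markers were called higher in 2 of 9 (median 0.40, sums 3899 to 5259 and 4794 to 6430), and 1 of 8 B lymphocyte markers, Ebf1, was called lower. Of 12 cartilage markers that are not collagens, 0 were called higher and 2 lower, Prg4, the lubricin of joint surfaces (−5.21 ± 0.47), and Cytl1 (−1.76 ± 0.33). Of these 12 markers 9 had the higher mean in replicates 3 and 4 (median 0.19), and their sums were 29320 to 76460 and 15090 to 43980. No marker was at 0, with lowest values of 55.4 for Matn1 and 53.3 for Ocstamp.

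Levels on single arrays showed the same links. Col14a1 deviations correlated with the adipocyte list at 0.97, the tendon and fibroblast list at 0.94 and the muscle list at 0.93 (0.85, 0.78 and 0.63 with set removed). Col3a1 correlated with the tendon and fibroblast list at 0.89, and at 0.44 with set removed. The cartilage collagen level correlated with the endothelium list at 0.88, the osteoblast and osteocyte list at 0.84 and the cartilage marker list at −0.05 (0.84, 0.74 and 0.45 with set removed). Each list level is a sum of signals. In the cartilage marker sum, which was 15094 to 76457, Prg4 alone ranged from 95.8 to 43060. That sum therefore need not follow the other cartilage markers. In the adipocyte sum, which was 11436 to 85337, Car3 alone ranged from 3854 to 56420. The adipocyte sum likewise need not follow the other adipocyte markers. The correlations are descriptions over 16 arrays whose points share the same libraries.

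In the set comparison, members of the collagen-making lists passed as well, beside 6.41% of all probe sets called higher and 4.76% called lower. Of 15 modification genes 5 were called higher, Plod2, P4hb, Crtap, P4ha1 and P3h1, with differences from 0.39 to 0.59, and 0 lower. Sec24d, a coat protein of procollagen export, rose by 0.73 ± 0.15, the only call among 9 export genes. Of 6 processing genes Bmp1, the C-proteinase, rose by 0.54 ± 0.15 and Pcolce2 by 0.85 ± 0.17, while Pcolce fell by 0.66 ± 0.19. The integrin chains Itga10 and Itgb1 rose by 1.03 ± 0.15 and 1.06 ± 0.15 among 8 receptors. Sp7 rose by 1.02 ± 0.20, whereas Sox6, a partner of Sox9 in cartilage, fell by 0.85 ± 0.17 and Mef2c by 0.56 ± 0.17. Sox9 itself, the master regulator of chondrocytes, differed by 0.17 ± 0.23.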

How the data were processed

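RNA of 16 femurs was measured on 16 arrays of 45101 probe sets. The authors used GCOS (version not given), per the submitters' processing notes, and deposited 1 signal intensity for each probe set and array on a linear scale. In the deposited table the 2% trimmed mean was 500 on each array, and no further scaling was applied. Median signal was 153 to 217 per array. The number of arrays, 4 a group, limits the precision.

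Probe sets were named from the platform annotation: 34958 had 1 gene symbol, 932 had several and none was named from these, and 10092 probe sets that were not controls had no single symbol. Of the named probe sets, 34754 matched RefSeq genes. The 64 controls were left out.

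All 45037 other probe sets were fitted on log2(signal + 16) with limma 3.58.1 in R 4.3.3 (lmFit, eBayes with trend, 1 mean per group, no filter on low signal). Called means a two-sided p under 0.05 after Benjamini-Hochberg adjustment over all of them. Fold changes on this scale understate those of dim probe sets. The replicate sets were compared with group as a term, and their effect on the response with a mean per group and set. The labels name separate mice, 1 per array.

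Genes were named by a rule: the 3 of highest mean signal in each class, all cartilage collagens, the 5 of smallest p in each comparison, called genes, and called or most different members of the lists. Other collagens were named after their values were seen. The members, classes, marker lists, pathway lists and the split into replicate sets were chosen with earlier results of these data known. Medians and counts of lists are descriptions.

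In a simulation of the wild-type estrogen comparison over 45037 probe sets, limma recovered 46 of 100 changes of log2 size 1 and 86 of 100 of size 2, with 7 false calls. The changes were placed in brighter probe sets only. The noise was drawn independently for each probe set and array, without the differences between replicate sets. These rates therefore need not hold for dim genes or for the cartilage collagens, which varied more. Alternatives were pseudocounts of 1 and 64, quantile normalization, a low-signal filter, 1 probe set per gene, the mean over a gene's probe sets, eBayes without a trend, array weights, the replicate number or set as a term, single sets or groups, and leaving out arrays.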

Additional observations from a re-analysis of the deposited data

Results flagged for a closer look

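A single array far from the other 3 of its group was found in 8 of 168 combinations of gene and group (Dixon's ratio above its 95% critical value), where 1 in 20, or 8.4, would be expected by chance. Col6a2 read 9014 on WT-OVX replicate 2, an array that stood apart in spike-in signal, against 4315 to 4591 on the others. Col6a1 read 4278 on WT-E2-4hr replicate 1 against 2902 to 2982. Col16a1 read 699 on WT-E2-4hr replicate 3 against 1204 to 1310, and Col6a4 read 33.6 on the same array against 190 to 213. Col9a3 read 1497 on ERaKO-OVX replicate 4 against 2378 to 2612, and Col4a2 read 1117 on ERaKO-OVX replicate 3 against 820.5 to 865. Col4a6 read 59.8 on ERaKO-E2-4hr replicate 1, which also stood apart, against 203 to 246. Col20a1 read 181 on ERaKO-E2-4hr replicate 2 against 111 to 118.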

How the results depend on the processing

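The count of called collagen genes was 0 in each estrogen, genotype and interaction comparison under every alternative run. The set comparison, with 10 called genes, gave 4 once the 3 arrays that stood apart were left out, 3 within WT-OVX, 0 within WT-E2-4hr, 0 within ERaKO-OVX, 4 within ERaKO-E2-4hr, and 5 to 12 when single arrays were left out. Smaller groups have fewer arrays, and other causes were not tested. Col10a1 and Col14a1 were called in 24 of 24 alternatives and Col24a1 in 8. The fibrillar median after estrogen in wild type was −0.31 in the arrays numbered 1 and 2 alone and −0.98 in those numbered 3 and 4. The fibrillar set median was 0.10 with the mean over all probe sets of a gene, and the basement membrane set median was 0.44 within WT-E2-4hr. Signs turned within replicates 3 and 4 in the knockout for Col6a3 (−0.052), Col5a1 (−0.072), Col12a1 (−0.63), Col3a1 (−0.57) and Col16a1 (−0.65), and also for Col24a1 in the set comparison (−0.17 within WT-E2-4hr) and Col1a2 there (0.16 after quantile normalization), and the cause was not tested. The cartilage median after estrogen in wild type was −1.32 with array weights. With the replicate number as a block, 0 collagen genes were called in each estrogen, genotype and interaction comparison. The numbers were not taken as pairs: deviations of same-numbered arrays correlated at a median of 0.24 (over 0.1 in 23 of 24 pairs), against 0.30 for the other number of the same set and −0.26 for the other set.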
